A study of Homo sapiens with 3 samples.

Results

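The miR-29 family was followed across 3 strains of the cell line HCCLM3, which comes from a human liver cancer (hepatocellular carcinoma, HCC). Its members were taken by name: every listed mature miRNA called hsa-miR-29a, hsa-miR-29b or hsa-miR-29c, with any copy number and arm, which gave 7 of 1921 names. They comprised the 3 strands cut from the 3p arm of the hairpin (hsa-miR-29a-3p, hsa-miR-29b-3p and hsa-miR-29c-3p) and 4 strands from the 5p arm. Their read counts were scaled to counts per 1000000 of the library total (CPM). Values in a row of 3 are given in the order parent, subclone1, subclone2. The parent strain carried the label of low metastasis, subclone1 that of a metastatic ability directed to the lung, and subclone2 that of a dual ability for lung and celiac lymph node. All were grown in DMEM, without any further treatment given in the labels. The study describes its parental line as highly metastatic and its clones as grown from single cells of lung and lymph node metastases in nude mice, but the labels do not tell which clone each subclone is. Every strain had 1 library, so no value below has a replicate check, no test between strains was possible, and a difference compares libraries rather than tropisms.

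The libraries held 7902438 counts (parent), 3570864 (subclone1) and 4568075 (subclone2), and 192 of the 1921 names had a mean of at least 10 CPM and were kept for comparisons. The identity of the cells was checked on miRNA markers. Among 5 epithelial names of the miR-200 family 3 were kept. All 5 together had a summed level of 75.5, 111 and 132 CPM, lowest in the parent. Of the 3 kept names hsa-miR-200a-3p alone was at least 2-fold apart, with 27.8, 44.8 and 61.1 CPM. Its log2 ratio was 1.13 for subclone2 over the parent, and the part of this difference in the results on miR-29 was not tested. hsa-miR-122-5p, the defining miRNA of hepatocytes, had only 6.71, 5.32 and 3.94 CPM, so the hepatocyte marker was nearly absent from these cells of liver tumour origin. Markers of other cell types were close to 0: the 4 names of stellate cells and fibroblasts summed to 8, 2 and 1 counts, the endothelial hsa-miR-126-3p had 1, 1 and 2 counts, and the 7 blood cell names together 5, 7 and 6 counts.

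miRNAs are cut from hairpin transcripts, and 1 strand of the resulting duplex, the guide, is loaded into an Argonaute protein, while the passenger strand is usually degraded. The guide finds its messenger RNA targets mainly through the seed, bases 2 to 8 from its 5′ end. miR-29 guides are known as repressors of collagens and other matrix proteins, of the de novo DNA methyltransferases DNMT3A and DNMT3B, and of the survival factor MCL1. In liver they are best known from stellate cells, where their loss accompanies fibrosis, and a low level of miR-29 has been linked with HCC.

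The family is made from 4 hairpins at 2 loci, each locus carrying a copy of miR-29b beside a second member. MIR29A (chr7:130876747-130876810) and MIR29B1 (chr7:130877459-130877539) lie on the minus strand of chromosome 7 with 648 bases between them. MIR29B1 lies wholly in an exon of the long noncoding RNA LINC-PINT. MIR29A overlaps the end of an exon of that gene by 2 bases, and both lie in an intron of the longer transcript AC016831.6. MIR29C (chr1:207801852-207801939) and MIR29B2 (chr1:207802443-207802523) lie on the minus strand of chromosome 1, 503 bases apart, both in exons of MIR29B2CHG, their host transcript. Positions are from RefSeq and GENCODE release 29 on GRCh38.

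The guide strands are shown because they share a seed. hsa-miR-29a-3p and hsa-miR-29c-3p also differ at a single base, so the counts of that pair can depend on how single mismatches were treated. Capitals mark the seed, and sequences are from RefSeq (GRCh38.p14), which matched all 7 names.
hsa-miR-29a-3p: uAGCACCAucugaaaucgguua
hsa-miR-29b-3p: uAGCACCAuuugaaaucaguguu
hsa-miR-29c-3p: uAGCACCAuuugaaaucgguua

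Among 2370 mature strands in the RefSeq table the seed AGCACCA occurred in these 3 and in no other. Positions are counted from 1 at the 5′ end, with the base of the first-named strand first. hsa-miR-29a-3p and hsa-miR-29c-3p differ by the single substitution C10U, outside the seed. hsa-miR-29b-3p differs from hsa-miR-29c-3p by A18G, G21U and U22A and is 1 base longer, with 23 bases against 22. It is also the only member that holds the hexamer AGUGUU, here from base 18 to its 3′ end, which is known as a nuclear import element of miR-29b. That hexamer was found in 13 of the 2370 strands, or 0.549%. No strand outside the family shared more than 10 consecutive bases with any member, and hsa-miR-29a-3p shared at most 8.

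The 5p strands are shown because 4 separate sequences name the 4 hairpins, whereas the guide of miR-29b is identical from both of its copies. Capitals again mark bases 2 to 8.
hsa-miR-29a-5p: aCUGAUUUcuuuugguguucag
hsa-miR-29b-1-5p: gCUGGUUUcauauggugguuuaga
hsa-miR-29b-2-5p: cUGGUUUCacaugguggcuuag
hsa-miR-29c-5p: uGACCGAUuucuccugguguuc

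None of these 4 shares its bases 2 to 8 with another strand in the table. The 5p strands of the miR-29b copies, aligned with an offset of 1 base, differ by U11C and U19C. The hairpin of MIR29A is given whole, with both mature strands in capitals, to show the duplex from which the most abundant member is cut.
MIR29A: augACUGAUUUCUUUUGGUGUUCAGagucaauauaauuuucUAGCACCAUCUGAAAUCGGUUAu

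hsa-miR-29a-3p carried nearly all of the family and differed by 1.09-fold between the lowest and the highest strain. Its counts were 147859, 72773 and 85817. This corresponded to 1.87% of all counts (95% exact binomial interval 1.86 to 1.88) for the parent, 2.04% (2.02 to 2.05) for subclone1 and 1.88% (1.87 to 1.89) for subclone2. With this scale subclone1 was the highest, while the intervals of parent and subclone2 overlapped. The order depended on the scale. With TMM factors, which set it by a trimmed mean of ratios over all miRNAs, subclone2 was the highest, with a log2 ratio to the parent of 0.18 (0.16 to 0.19) against 0.06 for subclone1, and subclone2 was also the highest under both other scalings tried. hsa-miR-29a-3p ranked 11th, 10th and 11th among the miRNAs of the libraries. Intervals here cover counting error only, since reads amplified by PCR without molecular identifiers are not independent molecules. A lower level in a culture could come from fewer cells with the miRNA or from less of it per cell, and these cannot be told apart.

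hsa-miR-29b-3p, the guide made from both loci, had 3799, 1741 and 1878 counts. Its level was 481 CPM (interval 466 to 496) for the parent, 488 CPM (465 to 511) for subclone1 and 411 CPM (393 to 430) for subclone2. With the library total subclone2 was the lowest, with an interval apart from the others, and parent and subclone1 overlapped. With TMM factors subclone2 was still the lowest, but its log2 ratio to the parent was -0.05 (-0.14 to 0.03). It held rank 48 in every library.

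hsa-miR-29c-3p, which is made from chromosome 1 alone, had 1850, 953 and 1080 counts. Its level was 234 CPM (224 to 245) for the parent, 267 CPM (250 to 284) for subclone1 and 236 CPM (223 to 251) for subclone2, at ranks 64, 62 and 63. With the library total subclone1 was the highest, but the lower end of its interval met the upper end of that of subclone2. The intervals of parent and subclone2 overlapped widely. With TMM factors, in contrast, subclone2 had a log2 ratio to the parent of 0.19 (0.08 to 0.29) against 0.13 for subclone1. Within the limits of ligation bias, which makes counts of different miRNAs hard to compare, the order in each library was hsa-miR-29a-3p, hsa-miR-29b-3p and hsa-miR-29c-3p.

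**Figure D1:**
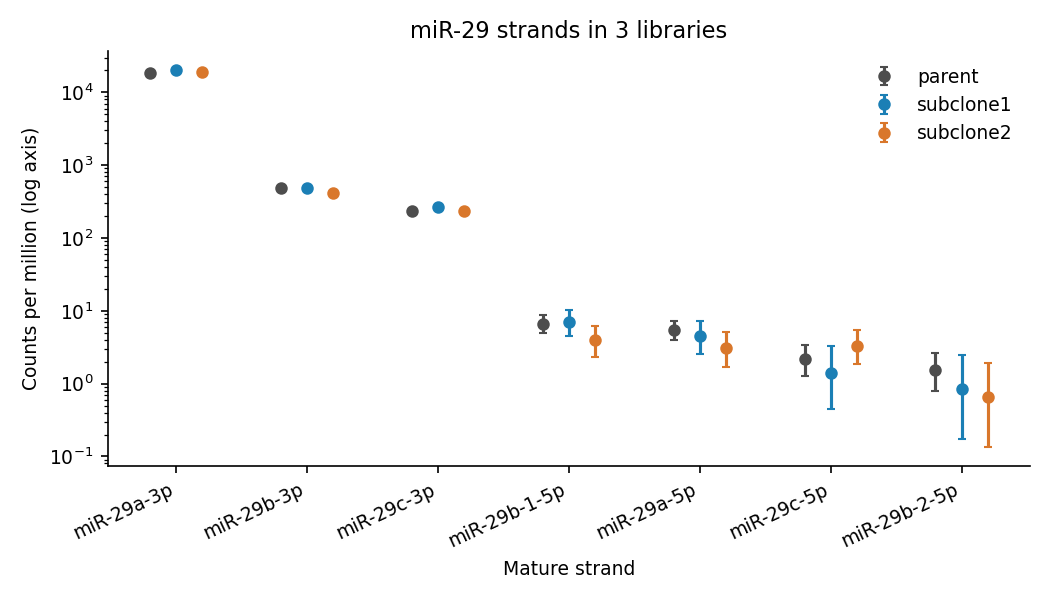
Level of the 7 miR-29 strands in CPM (log axis), with a point for each library and bars for the 95% exact binomial interval (counting error only). The guide strands lie between 234 and 20380 CPM and the 5p strands between 0.657 and 7.001 CPM, and no strand changes its place from the guide to the 5p range between libraries.

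Summed, the guide strands held 153508, 75467 and 88775 counts, or 1.94%, 2.11% and 1.94% of the libraries. By seed, over the 1576 names whose sequence was matched (94.5% to 94.9% of counts), the family was the 5th most abundant in the parent and the 6th in each subclone. Its total moved little compared with other abundant seeds. Between the lowest and the highest library it differed by 1.09-fold, against a median of 1.28-fold and a maximum of 3.73-fold over the 20 seed families with a mean of at least 1000 CPM, of which 1 had a smaller range.

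The same was seen for single names. The range of hsa-miR-29a-3p over the libraries was 0.12 on the log2 scale, that of hsa-miR-29c-3p 0.19 and that of hsa-miR-29b-3p 0.25, compared with a median of 0.53 over the 192 kept names. Only 10 kept names had a smaller range than hsa-miR-29a-3p, 23 a smaller range than hsa-miR-29c-3p and 34 a smaller range than hsa-miR-29b-3p. The contrast was weaker beside abundant names alone. Over the 34 names with a mean of at least 1000 CPM the median range was 0.33. Of these, 3 had a smaller range than hsa-miR-29a-3p, 9 than hsa-miR-29c-3p and 12 than hsa-miR-29b-3p. All of these ranges rest on 3 libraries. The order among the members depended on the scaling: with TMM factors the ranges were 0.18, 0.19 and 0.05, and hsa-miR-29b-3p was the steadiest.

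**Figure D2:**
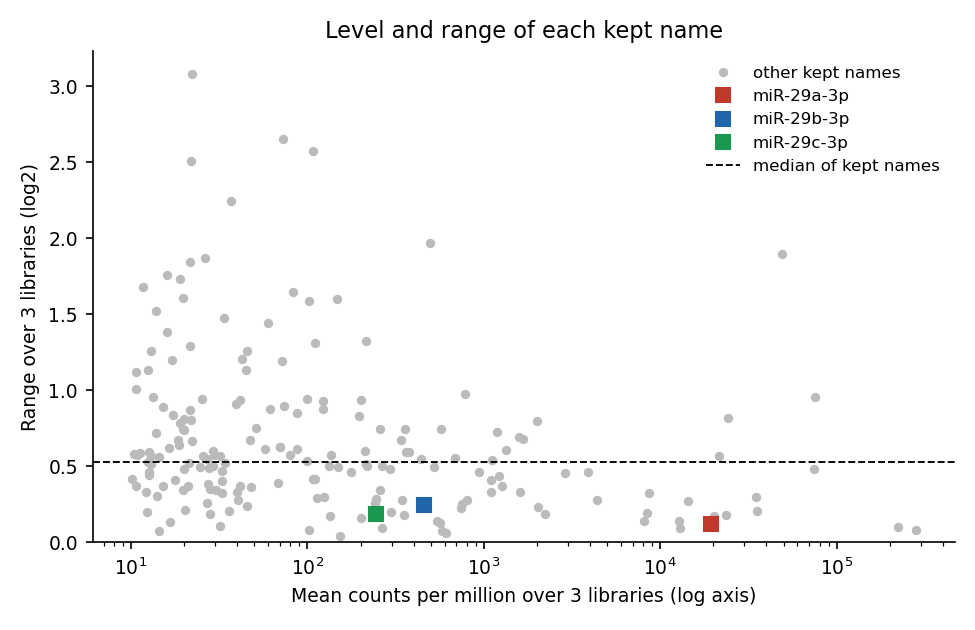
Range over the 3 libraries (log2 of the highest over the lowest level) against the mean level in CPM (log axis) for the 192 kept names. The 3 guide strands (squares, 0.12, 0.25 and 0.19 for miR-29a-3p, miR-29b-3p and miR-29c-3p) lie below the median of 0.53 (dashed line).

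To see how the family differed in the strain labelled for lung metastasis, subclone1 was set against the parent. hsa-miR-29a-3p was 8.92% higher in subclone1, with a log2 ratio of 0.12 (interval 0.11 to 0.14), and hsa-miR-29c-3p had 0.19 (0.07 to 0.30). For hsa-miR-29b-3p it was 0.02 with an interval of -0.06 to 0.10, so no difference was detectable at this depth. With TMM factors the log2 ratio of hsa-miR-29a-3p fell to 0.06 (interval 0.05 to 0.07). That of hsa-miR-29c-3p fell to 0.13 (0.01 to 0.24), with a lower end close to 0. A miRNA was called when it was at least 2-fold apart with an interval excluding a ratio of 1. By this rule 0 of the 3 guide strands were called, against 13.0% of all kept names. Counting error alone was exceeded by 2 of the 3, against 68.8% of all kept names, a share at which nothing particular to the family can be read. The median log2 ratio of all kept names was 0.02.

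For subclone2 against the parent, the log2 ratio of the summed guide strands was 0.00063, with an interval from -0.01 to 0.01. Of single strands, hsa-miR-29a-3p (0.0058, interval -0.0063 to 0.02) and hsa-miR-29c-3p (0.01, interval -0.10 to 0.12) had intervals that included 0. hsa-miR-29b-3p was 14.5% lower, a log2 ratio of -0.23 (-0.31 to -0.15). Again 0 of the 3 guide strands were called, against 10.4% of kept names, and 1 of the 3 had an interval excluding a ratio of 1, against 69.3%. Here the scaling matters. The median log2 ratio of all kept names was -0.14 in this comparison, and TMM factors moved it to 0.03. The summed guide strands stood 0.14 above that median, compared with 0.10 for subclone1 over the parent. With TMM factors the log2 ratios of hsa-miR-29a-3p and hsa-miR-29c-3p were 0.18 (interval 0.16 to 0.19) and 0.19 (0.08 to 0.29), while the interval of hsa-miR-29b-3p then included 0. Under each of the 3 other scalings 2 of the 3 guide strands had an interval excluding a ratio of 1.

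Between the subclones, which asks about lymph node beside lung metastasis, all 3 guide strands were lower in subclone2. The log2 ratios were -0.12 for hsa-miR-29a-3p (interval -0.13 to -0.10), -0.25 for hsa-miR-29b-3p (-0.34 to -0.15) and -0.17 for hsa-miR-29c-3p (-0.30 to -0.05). None was called, against 5.73% of kept names, while 3 of 3 intervals excluded a ratio of 1, against 58.9%. All 3 lay near the median of all kept names, which was -0.16. The direction was not stable, since the summed guide strands went from -0.12 with the library total to 0.11 with TMM factors, and no direction between the subclones is drawn.

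**Figure D3:**
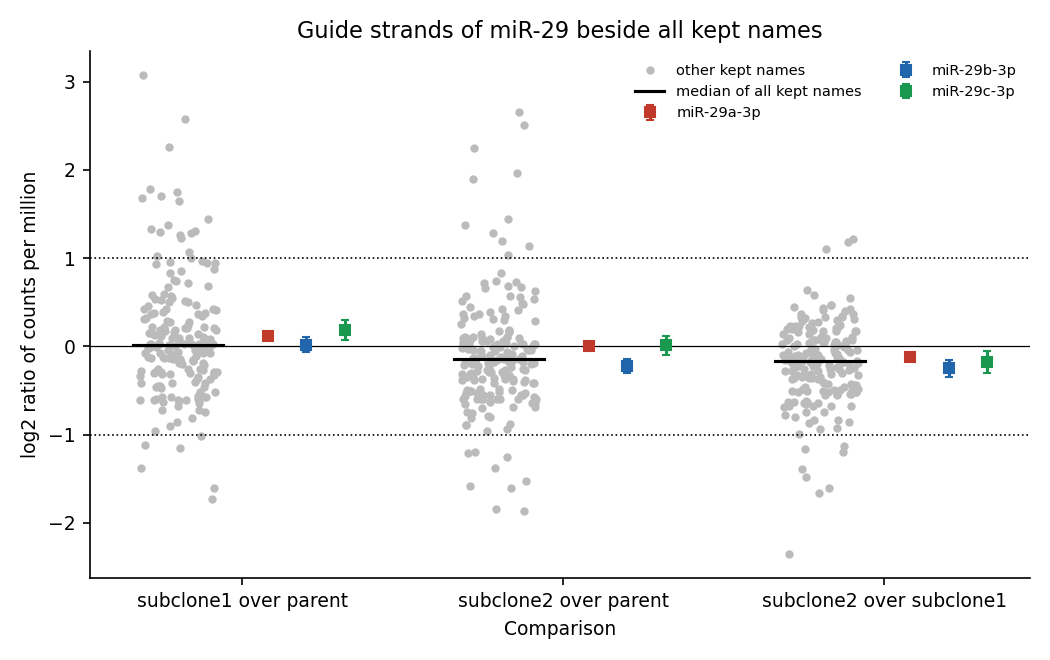
log2 ratios of CPM in the 3 comparisons, with grey points for the other kept names, a black line for the median of all 192, and squares with 95% exact conditional intervals (counting error only) for the guide strands. All guide strands lie between -0.25 and 0.19, inside the 2-fold lines (dotted).

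The relation of the members to each other within a library does not depend on scaling. Per 100 counts of hsa-miR-29a-3p, the parent had 2.57 counts of hsa-miR-29b-3p (interval 2.49 to 2.65). This was 2.39 for subclone1 (2.28 to 2.51) and 2.19 for subclone2 (2.09 to 2.29). Relative to hsa-miR-29a-3p, subclone1 thus had 0.931 times the hsa-miR-29b-3p of the parent (0.879 to 0.986) and subclone2 0.852 times (0.805 to 0.901). Subclone2 was also lower than subclone1, with a factor of 0.915 (0.856 to 0.978). The lower proportion of miR-29b to miR-29a was therefore beyond counting error in all 3 comparisons, but it could not be set against a spread between cultures.

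In contrast, hsa-miR-29c-3p kept a nearly fixed proportion. Per 100 counts of hsa-miR-29a-3p it had 1.25 (1.19 to 1.31) for the parent, 1.31 (1.23 to 1.396) for subclone1 and 1.26 (1.18 to 1.34) for subclone2. Relative to the parent, the factor was 1.05 (0.966 to 1.13) for subclone1 and 1.006 (0.932 to 1.09) for subclone2, and these intervals include 1. The members with this fixed proportion come from different chromosomes and are the pair separated by the single substitution C10U. How many of the hsa-miR-29c-3p counts were reads of the far more abundant hsa-miR-29a-3p with an error at that base was not tested. Compared with hsa-miR-29b-3p, hsa-miR-29c-3p had 48.7, 54.7 and 57.5 counts per 100, lowest in the parent.

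**Figure D4:**
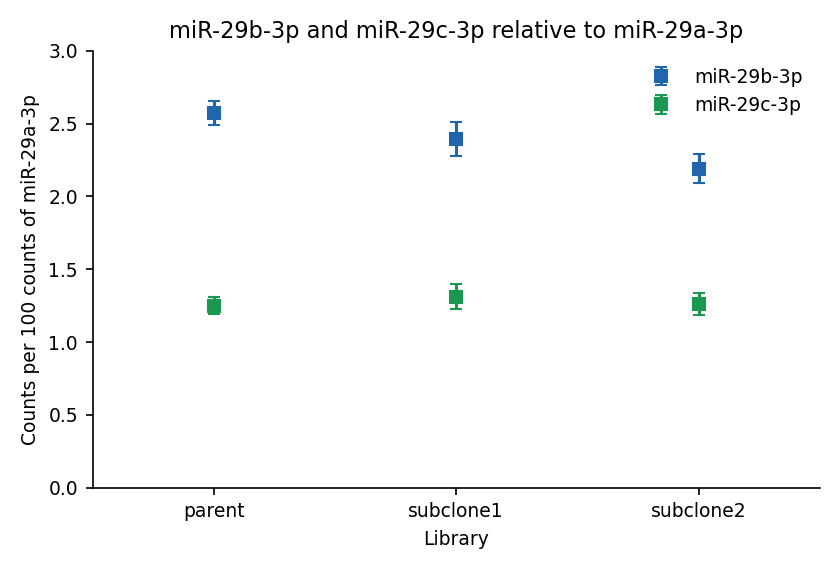
Counts of miR-29b-3p and miR-29c-3p per 100 counts of miR-29a-3p in each library, with 95% exact binomial intervals (counting error only). miR-29b-3p lies at 2.57, 2.39 and 2.19, and miR-29c-3p at 1.25, 1.31 and 1.26.

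The passenger side was sparse. hsa-miR-29b-1-5p had 52, 25 and 18 counts (6.58, 7.001 and 3.94 CPM). hsa-miR-29a-5p had 43, 16 and 14 counts (5.44, 4.48 and 3.06 CPM). Both come from chromosome 7, and both were lowest in subclone2, although each interval of the ratio to the parent included 1 (0.330 to 1.04 and 0.285 to 1.05).

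From chromosome 1, hsa-miR-29c-5p had 17, 5 and 15 counts (2.15, 1.4002 and 3.28 CPM), and hsa-miR-29b-2-5p had 12, 3 and 3 (1.52, 0.840 and 0.657 CPM). hsa-miR-29c-5p was thus the highest in subclone2 and hsa-miR-29b-2-5p in the parent, with overlapping intervals in both. A count of 0 would have allowed up to 0.380, 0.840 and 0.657 CPM in these libraries (3 counts of the total), so hsa-miR-29b-2-5p in the subclones stood at this limit. None of the 4 strands reached the mean of 10 CPM needed to be kept.

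Summed by locus, the 5p strands of the chromosome 7 hairpins had 95, 41 and 32 counts, and those of the chromosome 1 hairpins 29, 8 and 18. The chromosome 7 sum in subclone2 was 0.583 times that of the parent (interval 0.378 to 0.878). This value rests on the library total, and the locus sum was not rescaled. For all 5p strands together the log2 ratio of subclone2 to the parent was -0.51 (-1.02 to -0.03) with the library total. With TMM factors it was -0.34 (-0.85 to 0.14), an interval that included 0. The chromosome 1 sum in subclone2 was 1.07 times that of the parent, with a wide interval of 0.562 to 1.99998. Set against each other, the chromosome 1 strands per chromosome 7 strand were 1.84 times as many in subclone2 as in the parent. The interval was 0.842 to 3.96, so a difference between the loci was not detectable in this comparison. They were 2.88 times as many in subclone2 as in subclone1, with an interval of 1.02 to 8.61. That interval only just excluded 1, and it rests on 18 against 8 chromosome 1 counts. Among the 5p strands of miR-29b itself, the chromosome 7 copy gave the larger count in every library.

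With guide and 5p strands added, names made only at chromosome 7 had 18723, 20391 and 18793 CPM, a ratio of subclone2 to the parent of 1.004 (0.995 to 1.01). Names made only at chromosome 1 had 238, 269 and 240 CPM, a ratio of 1.01 (0.938 to 1.09). With TMM factors the log2 ratios of these sums were 0.18 and 0.19. In subclone1 these ratios to the parent were 1.09 (1.08 to 1.10) and 1.13 (1.05 to 1.22), with overlapping intervals for the 2 loci. Each sum was almost wholly a single guide. In the parent, hsa-miR-29a-3p gave 147859 of the 147954 chromosome 7 counts and hsa-miR-29c-3p 1850 of the 1879 chromosome 1 counts. The ratios of the sums thus largely repeat those of these guides.

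For every 100 guide counts the family had 0.0808, 0.0649 and 0.0563 counts of 5p strands. The value of subclone2 was 0.697 times that of the parent (interval 0.492 to 0.976), whereas subclone1 (0.804, interval 0.565 to 1.13) could not be told from the parent at this depth. Over the 55 stems with at least 50 counts of the minor arm, the median log2 change of minor per major arm from the parent to subclone2 was -0.10. Of the 55, 13 had a lower value than the -0.51 of the family, among them hsa-miR-29a itself at -0.80.

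The arms were unequal in a way that differed between members. In hsa-miR-29a the 5p strand held 0.0291%, 0.0220% and 0.0163% of both arms. In hsa-miR-29c it held 0.911% (interval 0.531 to 1.45), 0.522% (0.170 to 1.21) and 1.37% (0.769 to 2.25). In miR-29b, with both 5p strands added, it held 1.66%, 1.58% and 1.11%. hsa-miR-29a thus had the lowest 5p share in every library, with intervals apart from those of the other members. Among 120 stems with both arms listed and at least 100 counts, the median share of the minor arm was 3.21% over the pooled libraries. There, hsa-miR-29a (0.0238%) had 19 stems below it and hsa-miR-29c (0.944%) 44. The 3p arm led in 44 of the 120 stems, so the 3p guide of miR-29 is the less common arrangement here.

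**Figure D5:**
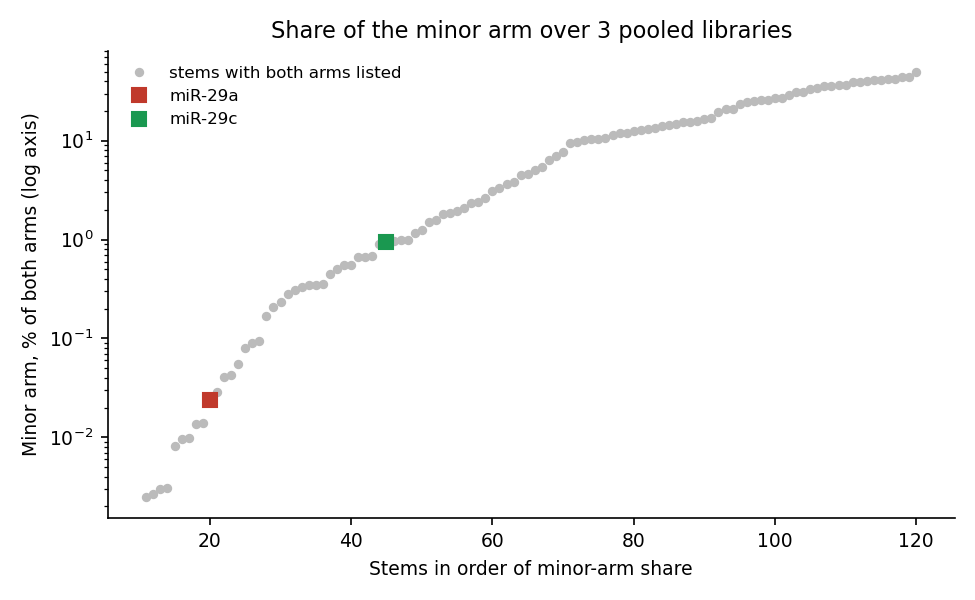
Share of the minor arm in percent of both arms (log axis) for stems in order of that share, pooled over the 3 libraries. miR-29a (red square) lies at 0.0238% and miR-29c (green square) at 0.944%, below the median of 3.21% over 120 stems, of which 10 with a minor arm at 0 counts cannot be drawn on a log axis.

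Neighbouring hairpins gave a view of the loci beyond miR-29. Within 2 Mb of the chromosome 7 pair, 4 hairpins had 8 listed names, of which 4 were kept. hsa-miR-335-5p, at 381 kb, had 13.9, 9.24 and 9.41 CPM. hsa-miR-182-5p, at 1106 kb, had 206, 149 and 175 CPM. From the same cluster hsa-miR-96-5p had 44.9, 37.0 and 39.4 CPM and hsa-miR-183-5p 43.4, 34.4 and 41.4 CPM. Scaled to the library total, each of the 4 was highest in the parent and lowest in subclone1. None was called in any comparison, against 13.0%, 10.4% and 5.73% of all kept names. Between the subclones only the interval of hsa-miR-182-5p excluded a ratio of 1. In subclone1 the log2 ratios were -0.58 (interval -1.20 to -0.02) for hsa-miR-335-5p, -0.47 (-0.61 to -0.32) for hsa-miR-182-5p, -0.33 (-0.64 to -0.03) for hsa-miR-183-5p and -0.28 (-0.58 to 0.01) for hsa-miR-96-5p. Within 2 Mb of the chromosome 1 pair 3 names were listed (hsa-miR-205-5p, hsa-miR-205-3p and hsa-miR-4260), all with 0 counts in every library, which allows up to the limits given above.

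Other miRNAs known to act on the same processes were described by list. Of 7 names known to target DNA methylation or histone methylation enzymes 5 were kept. 1 of them, hsa-miR-152, a regulator of the maintenance methyltransferase DNMT1, was called higher in subclone1 against the parent, with levels of 44.9, 141 and 63.05 CPM, and it was called lower in subclone2 against subclone1. This was 1 of 5 in each comparison, against 13.0% and 5.73% of all kept names. The list median of log2 ratios was -0.02 in subclone1 and -0.33 in subclone2, beside medians of 0.02 and -0.14 over all kept names. hsa-miR-26a-5p and hsa-miR-101-3p, which target the histone methyltransferase EZH2, had log2 ratios of -0.59 and -0.33 in subclone2, below the 2-fold rule.

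Of 7 names linked to liver fibrosis and matrix 3 were kept. hsa-miR-19b-3p, known as antifibrotic, was called lower in subclone2 against the parent, with levels of 35.7, 19.6 and 9.85 CPM. This was 1 of 3, against 10.4% of all kept names. The abundant hsa-miR-21-5p, known as profibrotic, had log2 ratios of -0.30 and -0.27 in the subclones, and hsa-miR-30c-5p, known as antifibrotic, had -0.29 and 0.06. The profibrotic hsa-miR-199a-5p and hsa-miR-214-3p had 0 counts throughout. The medians of this list, which are the values of hsa-miR-21-5p, were -0.30 and -0.27, beside 0.02 and -0.14 over all kept names.

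The kept names closest to the family in their pair of log2 ratios against the parent were sought over 189 non-members. Both ratios share the parent library, and only 3 libraries stand behind each pattern. Nearest to hsa-miR-29a-3p, and to the summed guide strands, were hsa-miR-24-3p (520, 573 and 526 CPM), hsa-miR-151a-5p (256, 274 and 262 CPM) and hsa-miR-107 (8106, 9073 and 7939 CPM), at distances of 0.02, 0.04 and 0.05 from hsa-miR-29a-3p on the log2 scale. Nearest to hsa-miR-29b-3p were hsa-let-7d-3p (0.01), hsa-miR-330-3p (0.04) and hsa-miR-423-3p (0.05). hsa-miR-29c-3p was closest to hsa-miR-1301 (0.02), hsa-miR-23a-3p (0.04) and hsa-miR-24-3p (0.05). The nearest names of hsa-miR-29b-3p were others than those of its relatives, but these distances were small beside counting error. For subclone1 over the parent the interval of the ratio ran from 0.845 to 1.22 for hsa-let-7d-3p and from 0.958 to 1.07 for hsa-miR-29b-3p. Whether the order of nearest names would hold under counting error was not tested.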

How the data were processed

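Small RNA libraries of 3 HCCLM3 strains were analysed, 1 per group. Per the labels, libraries were made from 1 ug of Trizol RNA by the TruSeq Small RNA protocol of Illumina, whose adapter ligation favours some RNA ends. The authors deposited raw read counts per mature miRNA. The submitters' processing notes name CASAVA 1.4 and hg19, and the aligner, the mismatch limit and the miRBase release are not given in the sources used here. Total counts were 7902438, 3570864 and 4568075.

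Counts were scaled to the library total as CPM, and a name was kept if its average level reached 10 CPM. The log2 ratio used 0.5 added counts. Its interval is the exact 95% conditional binomial interval, and those of shares and CPM are Clopper-Pearson. The exact interval of a ratio between members compared between libraries is that of the conditional odds ratio. A name was called at 2-fold or more with an interval excluding 1. The members and lists were chosen with earlier results of these data known. Named are all members, the 3 nearest kept names to each guide and to their sum, kept names of hairpins within 2 Mb by the RefSeq gene table, and called names of the fixed lists. hsa-miR-26a-5p, hsa-miR-101-3p, hsa-miR-21-5p, hsa-miR-30c-5p and names at 0 were added after their values were seen. TMM factors came from edgeR 4.0.16 and size factors from DESeq2 1.42.0 in R 4.3.3, and the rest was computed in Python 3.11.15 with scipy 1.17.1. The rule was tested on simulated data with counting error only, so this test did not cover a spread between cultures. Alternatives were 3 other scalings, 5 added counts, all arms summed, no minimum or 100 CPM, and a 1.5-fold threshold.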

Additional observations from a re-analysis of the deposited data

How the results depend on the processing

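No paired analysis was possible because there was a single library per strain, and none could be left out. Shares and ratios within a library do not change with scaling. The summed guide strands had log2 ratios of 0.060 with TMM factors, 0.055 with median-of-ratios size factors and 0.050 with the total without the 10 most abundant names of any library for subclone1 over the parent, 0.17, 0.15 and 0.073 for subclone2 over the parent, and 0.11, 0.093 and 0.023 for subclone2 over subclone1, where the sign changed. 5 added counts or all arms summed left these values inside their intervals. Neither could have moved them far, since the guide sums held 75467 to 153508 counts per library and the 5p strands 49 to 124. Of 120 values for single names and other sums 33 left the interval of the reported value. Of these, 19 were for single names, all of them guide strands, and 14 for sums. Each of the 3 other scalings moved hsa-miR-29a-3p out of its interval in every comparison. The 120 also include the 5p strands, whose intervals are wide, and the values with 5 added counts, none of which left their intervals.

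Calls are given in the order subclone1 over parent, subclone2 over parent and subclone2 over subclone1. They numbered 67, 75 and 33 of 877 names with no minimum, and 7, 6 and 1 of 89 names with a minimum of 100 CPM. At 1.5-fold they were 56, 53 and 35 of the 192 kept names. In all settings tried 0 miR-29 members were among them. With a minimum of 100 CPM, 71 of the 89 names had an interval excluding a ratio of 1 in each comparison.

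The ranges under other scalings were chosen after seeing the data. The kept names with a smaller range than hsa-miR-29a-3p numbered 16 with TMM factors, 15 with size factors and 2 without the most abundant names. For hsa-miR-29b-3p they were 3, 3 and 19, and for hsa-miR-29c-3p 10 in the last setting. Of 20 abundant seed families 3, 3 and 2 had a smaller range than miR-29. Depth limited the 5p strands, with 3 to 52 counts per library.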
